A study of Mus musculus with 6 samples.

Results

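Genes of enteric neuron structure and neurotransmission were followed in cultures of mouse enteric glia (EGCs), which surround the neurons of the gut wall. The 10 genes were taken by symbol from the gene count of each library: *Tubb3*, *Elavl3*, *Elavl4*, *Uchl1*, *Snap25* and *Stmn2* for neuronal structure, and *Nos1*, *Vip*, *Chat* and *Th* for neurotransmission. All 10 were found among 46603 gene identifiers, and 8 of them had enough counts to enter the test across 15226 genes. *Chat* and *Th* had too few counts and are given as counts.

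The data comprised 6 libraries of cultured cells, 3 untreated (control) and 3 exposed to lipopolysaccharide (LPS), a bacterial cell wall component that activates innate immune signalling, at 100 ng/ml for 12 h. Both groups were prepared in the same way from whole intestines of C57BL/6J embryos at E14.5. Cells of the digested gut were first grown as free-floating neurospheres with EGF and FGF, then dissociated and grown attached, in serum, until confluent. Because the whole gut wall was digested and no sort is described, such cultures can hold cells other than glia. It is not stated whether the 3 replicates of a group came from separate litters or cultures, so the p-values measure the spread between these samples only.

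Neurons and glia of the gut both arise from neural crest progenitors. Enteric neurons share a set of cytoskeletal, RNA-binding and vesicle proteins, and are then told apart by their transmitters. Motor neurons that contract the gut muscle use acetylcholine, which is made by choline acetyltransferase (*Chat*), while those that relax it use nitric oxide, made by neuronal nitric oxide synthase (*Nos1*), together with vasoactive intestinal peptide (*Vip*). Tyrosine hydroxylase (*Th*) carries out the rate-limiting step of catecholamine synthesis.

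The libraries held between 18775316 and 23664312 counts. Glial genes were present in every library: 9 of 10 listed glial markers were tested, and the summed level of the list ranged from 337 to 476 CPM (counts per 1e6 counts of the scaled library size) in the controls and from 394 to 408 CPM under LPS. In the glial list 1 gene was higher under LPS (*Fabp7*) and 1 lower (*S100b*), as given below. Markers of mesenchymal (connective tissue) cells summed to between 18024.5 and 18545.8 CPM in controls and between 17211.8 and 17696.6 CPM under LPS. That was above the glial sum in every library. Sums over lists of different genes do not measure cell numbers. The libraries numbered 3 stood apart in both groups. Summed markers of macrophages, which reside in the gut wall, were 4218, 5477 and 12940 CPM in controls 1, 2 and 3 and 4096, 5314 and 20357 CPM in LPS libraries 1, 2 and 3. All 12 macrophage markers were detected. The comparison between LPS and control is therefore also given without these libraries.

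To place the transmitter genes in the genome, the 250 bases before the annotated start (RefSeq, GRCm38.p6) are shown for *Vip*, the member with the most uniform difference between same-numbered libraries, and for *Th* and *Chat*, which were close to the detection floor. A start-site window was found for 8 of the 10 genes, all but *Snap25* and *Stmn2*. For *Th* and *Chat* this start differs from the end of the gene span given below, which comes from another annotation (GENCODE). The *Th* window lies inside that span and the *Chat* window partly overlaps it. The sequences run 5′ to 3′ on the coding strand, and capitals mark matches to TGACGTCA (the cAMP response element, CRE), to its half-site TGACG, and to TATAAA (the TATA box), each searched on both strands.
Vip, chr10:5638968-5639217, plus strand: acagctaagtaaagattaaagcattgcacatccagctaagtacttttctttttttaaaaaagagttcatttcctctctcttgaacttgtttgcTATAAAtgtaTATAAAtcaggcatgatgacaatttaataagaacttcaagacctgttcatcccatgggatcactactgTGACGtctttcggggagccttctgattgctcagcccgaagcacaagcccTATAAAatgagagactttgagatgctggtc
Th, chr7:142899996-142900245, minus strand: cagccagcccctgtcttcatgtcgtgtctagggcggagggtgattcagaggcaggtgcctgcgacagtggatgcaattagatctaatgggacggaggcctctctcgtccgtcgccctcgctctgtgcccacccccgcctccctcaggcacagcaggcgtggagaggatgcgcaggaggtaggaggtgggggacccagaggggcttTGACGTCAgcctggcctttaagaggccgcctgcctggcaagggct
Chat, chr14:32465910-32466159, minus strand: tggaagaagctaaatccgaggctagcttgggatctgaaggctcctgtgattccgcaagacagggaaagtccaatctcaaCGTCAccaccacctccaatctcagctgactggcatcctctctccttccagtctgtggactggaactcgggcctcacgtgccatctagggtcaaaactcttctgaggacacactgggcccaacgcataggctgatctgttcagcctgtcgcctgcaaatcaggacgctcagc
The *Vip* window held a CRE half-site at position -79 and TATAAA at positions -157, -147 and -30, counted back from the start. The *Th* window held the whole CRE at position -45, and the half-sites within it, but no TATAAA. In *Chat* the single match was a half-site on the opposite strand at position -171. Of the 32851 windows of this length in the mouse table, 1.55% held the CRE, 17.8% the half-site and 12.4% TATAAA. These matches describe the letters in the window and are not evidence of binding.

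When counts were divided by library size and by exon length (CPM per kb), so that genes could be ranked against each other, the order in the controls was *Uchl1*, *Tubb3*, *Vip*, *Nos1*, *Stmn2*, *Elavl4*, *Snap25*, *Elavl3*, *Th* and *Chat*. *Uchl1* reached 70.8 ± 16.1 CPM per kb (SD, n = 3), *Tubb3* 57.7 ± 13.4 and *Vip* 48.5 ± 17.4, which placed these 3 genes at percentiles 97.6, 96.9 and 96.3 of 23032 genes. *Nos1* followed at 11.4 ± 7.80 CPM per kb, *Stmn2* at 9.21 ± 3.86, *Elavl4* at 4.98 ± 2.09, *Snap25* at 2.38 ± 1.17 and *Elavl3* at 0.820 ± 0.343. *Th* (0.0593 ± 0.0360) and *Chat* (0.0456 ± 0.0500) were far below, at percentiles 20.6 and 18.4. *Vip* and the structural genes *Uchl1* and *Tubb3* were thus abundant, *Elavl4*, *Snap25* and *Elavl3* were at percentiles 67.3, 56.1 and 44.8, and the enzymes that define cholinergic and catecholaminergic neurons were near the floor.

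**Figure D1:**
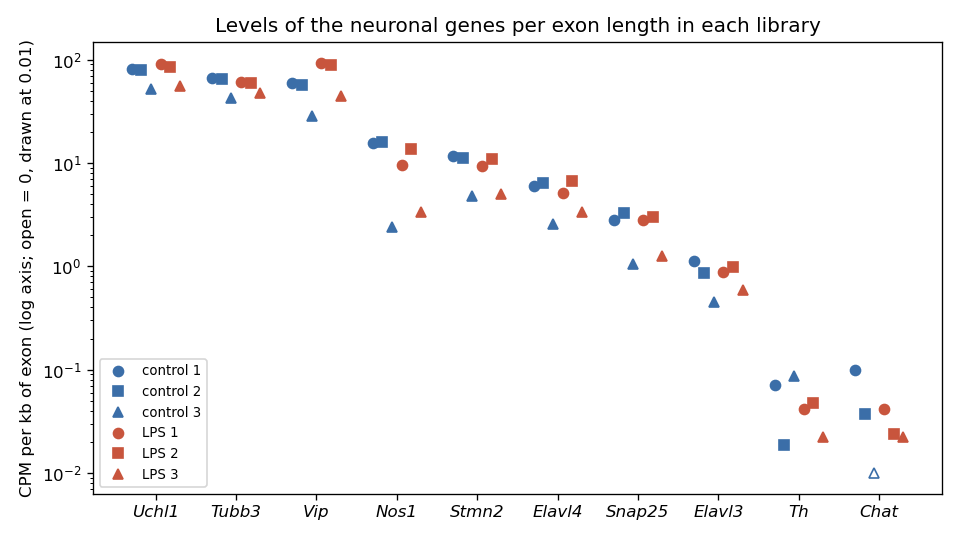
Level of each of the 10 genes in CPM per kb of exon (log axis), with control libraries in blue, LPS libraries in red and the replicate number as the symbol (circle 1, square 2, triangle 3). *Uchl1*, *Tubb3* and *Vip* lie highest, *Th* and *Chat* lowest, and the triangles are the lowest points of each group for all genes from *Uchl1* to *Elavl3*.

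The ranges over the 3 controls were separate between *Vip* and *Nos1* and between *Elavl3* and *Th*. The ranges of the other neighbours overlapped. Within a library *Uchl1* exceeded *Tubb3*, and *Tubb3* exceeded *Vip*, in 3 of 3 controls, but *Nos1* exceeded *Stmn2* in 2 of 3 (it was ranked 4 in controls 1 and 2 and 6 in control 3) and *Th* exceeded *Chat* in 1 of 3. Under LPS *Vip* was ranked 1 in libraries 1 and 2 (93.1 and 89.6 CPM per kb) and 3 in library 3 (44.6 CPM per kb). *Elavl3* stayed at rank 8 in all 6 libraries.

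None of the 6 structural genes passed the test between LPS and control, and their fitted changes lay between -0.13 and 0.13 on the log2 scale. Across all genes tested, 15.8% were called at an adjusted p under 0.05, with 9.09% higher and 6.71% lower under LPS, against 0 of 8 tested members (0 also at an unadjusted p under 0.05, and 0 with DESeq2, the edgeR exact test and limma-voom). The LPS and control ranges overlapped for 8 of 8 members, whereas 38.7% of all genes tested had groups that did not overlap.

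*Tubb3* (ENSMUSG00000062380, chr8:123411424-123422015, plus strand of GRCm38, as for the other genes) encodes class III β-tubulin, the neuronal isotype of the microtubule subunit. Its level was 124, 120 and 78.9 CPM in controls 1, 2 and 3 and 113, 112 and 88.9 CPM in LPS libraries 1, 2 and 3. Library 3 was the lowest of each group and the groups overlapped. The log2 fold change was -0.05 (SE 0.20, adjusted p = 0.901 with edgeR's quasi-likelihood test).

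*Uchl1* (ENSMUSG00000029223, chr5:66676091-66687234, plus strand) encodes the neuronal ubiquitin hydrolase also known as PGP9.5, a common stain for enteric neurons. It was measured at 133, 128 and 85.3 CPM in controls and 147, 140 and 91.3 CPM under LPS. Each LPS library was above the control with the same number, while the groups as a whole overlapped. The log2 fold change was 0.13 (SE 0.25, edgeR adjusted p = 0.770), and -0.03 when libraries were scaled by size alone. On GRCm38, 18.1% of the exon bases of *Uchl1* are overlapped by an antisense gene, *Uchl1os*, which was assigned between 0 and 2 counts per library.

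The RNA-binding proteins HuC and HuD, encoded by *Elavl3* and *Elavl4*, stabilise neuronal transcripts and are used to count enteric neurons. *Elavl4* (ENSMUSG00000028546, chr4:110203722-110351909, minus strand) was at 32.3, 34.3 and 13.8 CPM in controls and 27.8, 36.3 and 18.1 CPM under LPS. *Elavl3* (ENSMUSG00000003410, chr9:22015005-22052023, minus strand), the lower of the pair, was at 7.84, 5.98 and 3.14 CPM in controls and 6.03, 6.85 and 4.03 CPM under LPS. In both genes the library numbered 3 was lowest in each group, and neither group lay above the other. The log2 fold changes were 0.03 (SE 0.41, edgeR adjusted p = 0.967) for *Elavl4* and -0.0036 (SE 0.38, edgeR adjusted p = 0.996) for *Elavl3*, and their signs changed with the scaling.

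*Stmn2* (ENSMUSG00000027500, chr3:8509360-8561606, plus strand) encodes a microtubule-destabilising phosphoprotein of growing axons. It was at 65.3, 62.9 and 26.7 CPM in controls and 52.9, 60.9 and 28.1 CPM under LPS, with a log2 fold change of -0.13 (SE 0.43, edgeR adjusted p = 0.872). *Snap25* (ENSMUSG00000027273, chr2:136713453-136782428, plus strand) encodes the SNARE protein that drives fusion of synaptic vesicles. It was at 19.2, 22.2 and 7.19 CPM in controls and 19.0, 20.3 and 8.53 CPM under LPS, with a log2 fold change of -0.02 (SE 0.50, edgeR adjusted p = 0.983). For both genes libraries 1 and 2 of the 2 groups lay close together and well above both libraries numbered 3.

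**Figure D2:**
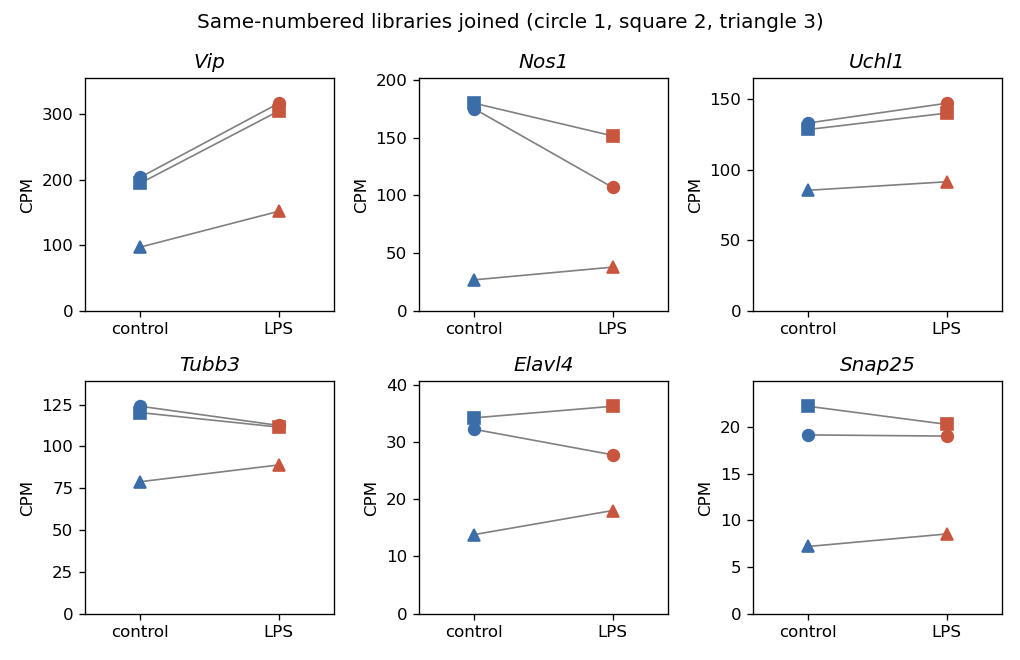
CPM of *Vip*, *Nos1* and 4 structural genes on linear axes from 0, with each control library (left) joined to the LPS library of the same number (right). The 3 lines of *Vip* all rise by a factor of 1.55 to 1.57, those of *Nos1* run down in pairs 1 and 2 and up in pair 3, and the triangles (number 3) are the lowest points in every panel.

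*Vip* was the one member called when the 3 pairs of same-numbered libraries were compared. Whether same-numbered libraries belong together is not stated. *Vip* (ENSMUSG00000019772, chr10:5639218-5647617, plus strand) encodes the peptide of inhibitory motor and secretomotor neurons. It was at 204, 195 and 97.0 CPM in controls 1, 2 and 3 and 317, 305 and 152 CPM in LPS libraries 1, 2 and 3. LPS libraries 1 and 2 were above all controls, but LPS library 3 was below controls 1 and 2, so the groups overlapped. Without regard to numbers the log2 fold change was 0.64 (SE 0.39, edgeR adjusted p = 0.313). The ratio between LPS and control was 1.55, 1.57 and 1.56 in pairs 1, 2 and 3. With the replicate number as a block the log2 fold change was 0.64 (SE 0.05, edgeR adjusted p = 0.00311). In that fit 30.3% of all genes tested were called, 15.4% higher and 14.9% lower, and *Vip* was the single member of 8 called. It was also called without both libraries numbered 3 (0.66, edgeR adjusted p = 1.88e-04), a fit in which 43.0% of all genes tested were called.

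The median of the other 7 tested members' log2 ratios was -0.21 in pair 1, -0.05 in pair 2 and 0.25 in pair 3, while the log2 ratio of *Vip* was 0.64, 0.65 and 0.64. *Uchl1* was also even between pairs, at 0.14, 0.13 and 0.10. In all 3 pairs 2 members, *Vip* and *Uchl1*, were higher under LPS, as were 31.0% of all genes tested. No member was lower in all 3 pairs, against 34.6% of all genes tested.

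*Nos1* (ENSMUSG00000029361, chr5:117781032-117958840, plus strand) had the largest spread relative to its mean among the 8 tested members, in both groups. It was at 175, 180 and 26.6 CPM in controls and 107, 151 and 37.6 CPM under LPS. The control numbered 3 was below every other library, and the groups overlapped. The log2 fold change was -0.37 (SE 0.80, edgeR adjusted p = 0.796), and -0.17 with the replicate block (edgeR adjusted p = 0.615). The ratio between LPS and control was 0.610 and 0.842 in pairs 1 and 2 and 1.41 in pair 3, so the direction differed between pairs. Without both libraries numbered 3 it was -0.44 (edgeR adjusted p = 0.0570), and -0.45 with the block as well (edgeR adjusted p = 0.00163). In this last fit *Vip* (0.67, edgeR adjusted p = 7.85e-07) and *Uchl1* (0.16, edgeR adjusted p = 0.0253) were called higher, and 49.8% of all genes tested were called. That fit rests on pairs 1 and 2 alone, so the spread was estimated from very few libraries and its p-values carry little weight. An antisense gene, *Gm26995*, covers 2.40% of the exon bases of *Nos1* and had between 0 and 4 counts per library.

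*Chat* (ENSMUSG00000021919, chr14:32408203-32465989, minus strand) had 11, 4 and 0 counts in controls 1, 2 and 3 and 4, 2 and 2 counts in LPS libraries 1, 2 and 3. *Th* (ENSMUSG00000000214, chr7:142892752-142931128, minus strand) had 4, 1 and 5 counts in controls and 2, 2 and 1 counts under LPS. Values at or under 3 counts, which correspond to between 0.124 and 0.167 CPM, were treated as at the floor, so no LPS library was above it for *Th* and only LPS library 1 was for *Chat*. The two-sided exact permutation p was 0.8 for *Chat* and 0.4 for *Th*, where 3 against 3 samples cannot go below 0.1. A difference between groups was not detectable at this depth.

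**Figure D3:**
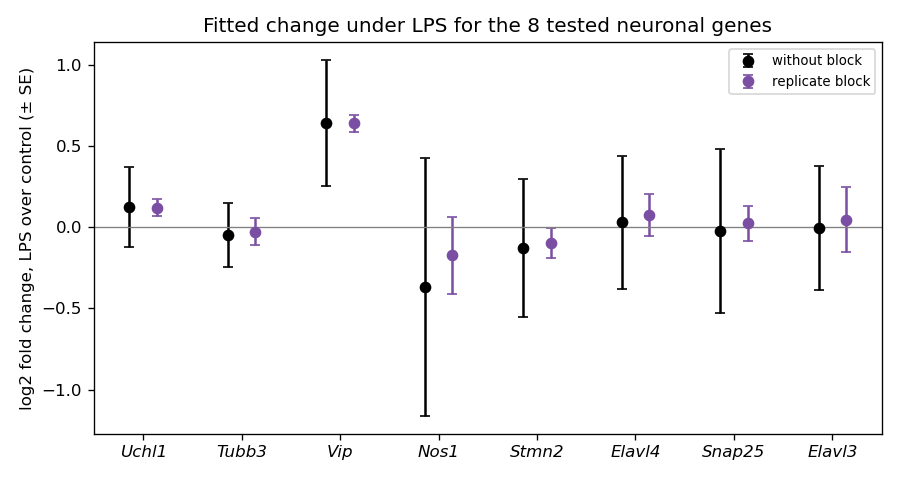
Fitted log2 fold change between LPS and control for the 8 tested genes, with SE as bars, without (black) and with (purple) the replicate number as a block. *Vip* lies at 0.64 in both, with an SE of 0.39 without and 0.05 with the block, and the other genes have values within 1 SE of 0 without the block.

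All 8 tested members were lowest in the library numbered 3 in both groups, a pattern found in 29.0% of all genes tested. The mean of libraries 1 and 2 exceeded library 3 by 1.53 to 6.66 times among the controls and by 1.26 to 3.43 times under LPS. *Nos1* had the highest ratio in each group and *Tubb3* and *Uchl1* were at the low end. The summed level of the 10 genes was 761, 749 and 339 CPM in controls 1, 2 and 3 and 789, 833 and 428 CPM under LPS. Macrophage markers moved the opposite way across the same libraries, from 4218 and 5477 to 12940 CPM in controls, and markers of interstitial cells of Cajal (the gut pacemaker cells) were low in the same libraries, at 203, 204 and 68.2 CPM in controls 1, 2 and 3 and 87.0, 78.4 and 50.5 CPM under LPS. Their part in the result was not tested. Without both libraries numbered 3 the log2 fold changes were -0.10 for *Tubb3*, -0.08 for *Elavl3*, -0.05 for *Snap25* and -0.15 for *Stmn2*. They were -0.03 for *Elavl4* and, the other way, 0.16 for *Uchl1*. None of these was called (edgeR adjusted p = 0.177, 0.768, 0.724, 0.194, 0.857 and 0.0644). In RNA from whole cultures, fewer cells of a type and less RNA per cell cannot be told apart.

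Of 22 other structural genes tested, 2 fell under LPS and none rose, where 6.71% of all genes tested fell and 9.09% rose. The median log2 fold change was -0.25, beside -0.02 over all genes. With the block 5 fell (*Map2*, *Dpysl3*, *Ncam1*, *Nrcam* and *Thy1*) and none rose, where 14.9% of all genes fell. Of these, *Thy1* is also among the mesenchymal markers. Unlike the tested members, *Thy1* was highest in library 3 of each group, at 116, 103 and 173 CPM in controls and 38.1, 33.4 and 112 CPM under LPS. *Nrcam*, a neuronal adhesion molecule that glia also make, went from 111, 108 and 129 CPM in controls to 71.3, 70.8 and 74.8 CPM under LPS (log2 fold change -0.68, SE 0.09, edgeR adjusted p = 0.00814). *Map2*, a microtubule-associated protein of dendrites, went from 30.8, 26.7 and 17.4 CPM to 11.2, 12.3 and 13.2 CPM (-1.03, SE 0.22, edgeR adjusted p = 0.0334). Among 25 vesicle genes tested, 2 fell, *Sv2c*, a vesicle glycoprotein (-0.86, edgeR adjusted p = 0.0208), and *Cplx2*, a complexin that clamps vesicle fusion (-0.77, edgeR adjusted p = 0.0243). The vesicle count is near the 6.71% over all genes, and with the block 3 fell (*Sv2a* in addition). The call on *Nrcam* held when any 1 library was left out (highest edgeR adjusted p = 0.0493). The calls on *Map2*, *Sv2c* and *Cplx2* were lost without control 1, control 2, LPS 1 or LPS 2, with highest edgeR adjusted p-values of 0.130, 0.0886 and 0.111, and that on *Map2* also with limma-voom (adjusted p = 0.0565).

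Close relatives of the members were counted as well. No exon stretch of 50 bases in *Tubb3*, *Elavl4* or *Th* recurred in another gene, and the largest share for any member was 12.6%, for *Uchl1*, shared with its antisense gene. Of 21 paralogs tested, 2 rose and 1 fell, close to the 9.09% and 6.71% over all genes, and with the block 6 rose and 3 fell, where 15.4% and 14.9% of all genes did. *Tubb4b*, a β-tubulin made by many cell types, rose from 184, 173 and 158 CPM to 235, 226 and 206 CPM (0.37, SE 0.09, edgeR adjusted p = 0.0469). *Stmn1*, the stathmin of dividing cells, fell from 55.4, 55.0 and 69.2 CPM to 24.2, 26.5 and 16.2 CPM (-1.42, SE 0.21, edgeR adjusted p = 0.0114), while *Stmn2* did not pass. *Nos2*, the inducible nitric oxide synthase, had at most 0.0443 CPM in any control and 771, 962 and 54.1 CPM in LPS libraries 1, 2 and 3 (edgeR adjusted p = 0.00723). *Nos3*, the endothelial form, stayed between 0.0988 and 0.279 CPM. The call on *Tubb4b* was lost when control 1, 2 or 3 or LPS 1 or 2 was left out (highest edgeR adjusted p = 0.160), and those on *Stmn1* and *Nos2* without control 2 (0.0560 and 0.0544 with edgeR). *Nos2* was not called with limma-voom (adjusted p = 0.123). *Tubb4b* was not called with upper-quartile scaling (edgeR adjusted p = 0.156), library size alone (0.225), no filter on low counts (0.0936) or the edgeR exact test (0.103).

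The choline transporter *Slc5a7*, which supplies cholinergic terminals, was at 105, 99.7 and 28.9 CPM in controls and 17.9, 16.2 and 13.7 CPM under LPS. All LPS libraries were below all controls (log2 fold change -2.29, SE 0.49, edgeR adjusted p = 0.0328). *Slc18a3*, the vesicular acetylcholine transporter, which lies within the *Chat* locus, was at 2.12, 1.86 and 0.579 CPM in controls and 2.37, 2.51 and 0.523 CPM under LPS (0.25, SE 0.70, edgeR adjusted p = 0.848). *Bche*, a cholinesterase that glia also express, fell by 1.47 on the log2 scale (SE 0.22, edgeR adjusted p = 0.0125). The *Slc5a7* call was lost when any library but control 3 was left out (highest edgeR adjusted p = 0.121) and with limma-voom (adjusted p = 0.0825), and the *Bche* call without control 2, LPS 1 or LPS 2 (0.0643 with edgeR).

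*Gch1*, the first enzyme in the synthesis of tetrahydrobiopterin, the cofactor of tyrosine hydroxylase and of the nitric oxide synthases, rose from 6.86, 7.30 and 11.4 CPM to 62.5, 69.3 and 66.6 CPM (2.95, SE 0.22, edgeR adjusted p = 0.00127), and stayed called when any 1 library was left out. *Qdpr*, which recycles that cofactor, fell by 0.33 on the log2 scale (SE 0.08, edgeR adjusted p = 0.0425). *Ddc*, the decarboxylase that follows *Th*, went from 2.25, 2.08 and 1.74 CPM to 1.04, 1.00 and 0.576 CPM (-1.21, SE 0.29, edgeR adjusted p = 0.0447). *Dbh*, which makes noradrenaline from dopamine, was at 21.1, 17.2 and 7.11 CPM in controls and 29.9, 23.9 and 10.0 CPM under LPS (0.49, SE 0.53, edgeR adjusted p = 0.576; 0.49 with the block, adjusted p = 0.0150). Like *Vip*, *Dbh* was higher in each LPS library than in the control of the same number, as were 31.0% of all genes tested. Without the block its log2 fold change depended on the libraries, from 0.16 without LPS 1 and 0.17 without control 3 to 0.82 without control 1 and 0.83 without LPS 3. *Ddc* and *Qdpr* lost their calls when control 1, 2 or 3 or LPS 1 or 2 was left out (highest edgeR adjusted p = 0.161 and 0.169), and without the filter on low counts (0.0690 and 0.0710 with edgeR), and *Qdpr* also with the edgeR exact test (adjusted p = 0.138). In the whole list of synthesis and transport, 1 of 20 tested genes rose and 4 fell, where 9.09% of all genes tested rose and 6.71% fell. With the block 2 rose and 6 fell, where the shares over all genes were 15.4% and 14.9%.

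**Figure D4:**
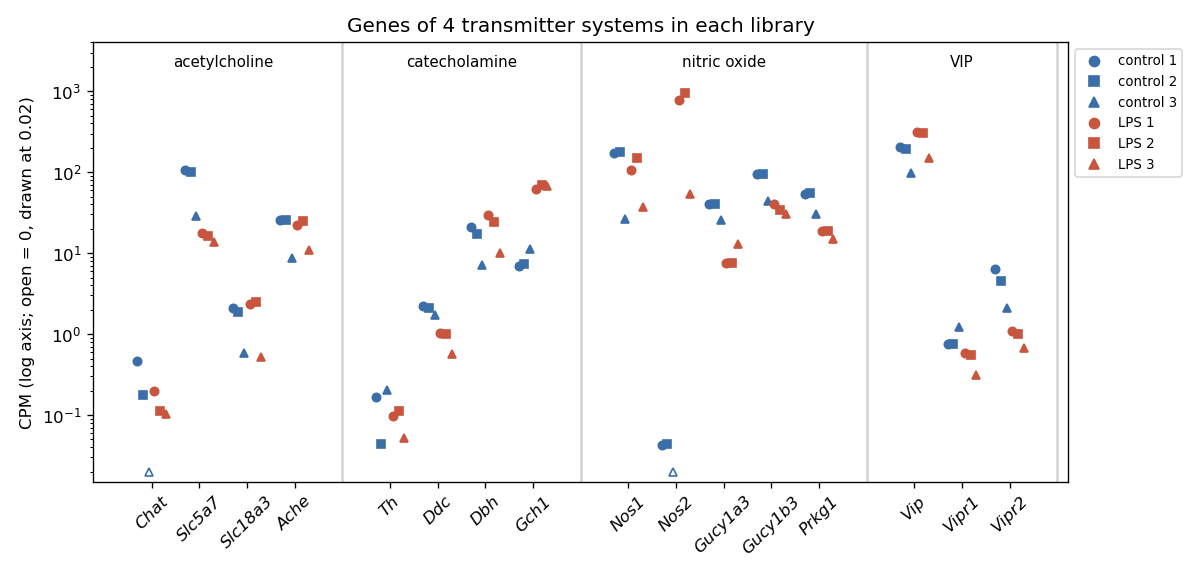
CPM (log axis) of genes of the acetylcholine, catecholamine, nitric oxide and VIP systems in each library, with controls in blue, LPS in red and the replicate number as the symbol. *Chat* and *Th* lie below 1 CPM in all libraries, while *Slc5a7*, *Gucy1a3* and *Vipr2* have all LPS points below all control points and *Gch1* and *Nos2* all above.

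Several genes on the receiving side of the inhibitory transmitters fell under LPS. Of 24 receptor and effector genes tested, 5 fell and 1 rose, where 6.71% of all genes tested fell and 9.09% rose. With the block 9 fell and 1 rose, where 14.9% of all genes tested fell and 15.4% rose. The median log2 fold change of the list was -0.86, beside -0.02 over all genes tested. *Vipr2*, a receptor for VIP, went from 6.40, 4.56 and 2.11 CPM to 1.09, 1.00 and 0.680 CPM (-2.23, SE 0.47, edgeR adjusted p = 0.0300). *Gucy1a3*, a subunit of soluble guanylate cyclase, the receptor of nitric oxide, went from 40.7, 40.8 and 25.8 CPM to 7.61, 7.63 and 12.9 CPM (-1.93, SE 0.29, edgeR adjusted p = 0.0123). *Gucy1a2*, another subunit, changed by -1.73 (edgeR adjusted p = 0.0413) and *Prkg1*, the cGMP-dependent kinase downstream, by -1.42 (edgeR adjusted p = 0.0197). Of the adrenergic receptors, *Adra1d* fell (-2.47, edgeR adjusted p = 0.0178) and *Adra2a* rose from 5.93, 6.46 and 11.2 CPM to 23.9, 20.0 and 34.1 CPM (1.72, SE 0.32, edgeR adjusted p = 0.0224). Smooth muscle, the target of these transmitters in the gut, expresses several of these genes. Summed smooth muscle markers were 2349 to 2599 CPM in controls and 683 to 982 CPM under LPS, with 7 of 8 markers called lower. Summed markers of interstitial cells of Cajal, which also receive these transmitters, were 68.2 to 204 CPM in controls and 50.5 to 87.0 CPM under LPS. Of their 3 markers 1, *Kit*, the receptor that defines these cells, was called lower (-2.12, SE 0.53, edgeR adjusted p = 0.0473), a call lost when any library but control 3 was left out (highest edgeR adjusted p = 0.150) and with limma-voom (adjusted p = 0.133). The part of either cell type in these values was not tested. The 6 receptor and effector calls were all lost without control 2 or LPS 2, with highest edgeR adjusted p-values between 0.0644 and 0.141. They were lost as well without control 1, and those other than *Adra1d* without LPS 1, and *Vipr2* and *Gucy1a2* also without LPS 3 and with limma-voom (adjusted p = 0.0671 and 0.0612).

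Of 16 other transmitter and peptide genes tested, 1 rose and none fell, where 9.09% of all genes rose and 6.71% fell, and 4 rose with the block, where 15.4% of all genes rose. The gene that rose was *Hdc*, which makes histamine, from 0.127, 0.133 and 0.0827 CPM in controls, at the floor, to 2.37, 2.67 and 3.30 CPM (edgeR adjusted p = 0.000927). It stayed called when any 1 library was left out. *Npy* joined it in the block fit, as did *Cartpt* and *Cck*, which were named after their values were seen. *Npy* was at 14.8, 19.7 and 24.6 CPM in controls and 30.6, 42.9 and 31.8 CPM under LPS (0.83, edgeR adjusted p = 0.0601; 0.84 with the block, adjusted p = 0.0280).

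Of 16 transcription factor genes of the neuronal lineage, 2 fell and 1 rose, where 6.71% of all genes fell and 9.09% rose. With the block 2 fell and 3 rose (*Hand2*, *Sox11* and *Rest*), where 14.9% of all genes fell and 15.4% rose. *Sox4*, a factor of differentiating neurons and other cells, went from 303, 287 and 239 CPM to 206, 196 and 164 CPM (-0.55, SE 0.13, edgeR adjusted p = 0.0439). *Rest*, a repressor of neuronal genes outside neurons, rose from 56.3, 60.9 and 62.7 CPM to 76.5, 72.4 and 74.4 CPM (0.31, SE 0.07, edgeR adjusted p = 0.0374). The calls on *Sox4* and *Rest* were lost without control 1, control 2, LPS 1 or LPS 2, and that on *Sox4* also without LPS 3 (highest edgeR adjusted p = 0.164 and 0.138). Without the filter on low counts neither was called (0.0513 and 0.104 with edgeR), and *Rest* was not called with upper-quartile scaling (0.21, edgeR adjusted p = 0.0930), library size alone (0.16, edgeR adjusted p = 0.154) or the edgeR exact test (adjusted p = 0.135). In the glial list *S100b* went from 24.7, 20.5 and 21.4 CPM to 4.94, 3.46 and 9.37 CPM (-1.91, SE 0.37, edgeR adjusted p = 0.0238) and *Fabp7* from 2.67, 2.26 and 2.73 CPM to 5.34, 7.41 and 6.07 CPM (1.29, SE 0.19, edgeR adjusted p = 0.0122). *S100b* lost its call without control 1, control 2, LPS 1 or LPS 2 and *Fabp7* without control 1, control 2 or LPS 2, with highest edgeR adjusted p-values of 0.0906 and 0.0723. Outside the members, the genes described above as rising or falling without the block were all called without both libraries numbered 3 as well. The highest edgeR adjusted p was for *Ddc* (0.0176). In that fit 43.0% of all genes tested were called, and its libraries are also part of the first test. The agreement is therefore not independent support.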

How the data were processed

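Raw counts per gene were used as deposited by the authors for 6 poly(A) libraries (stranded kit, 1 µg of total RNA). Per the labels, reads had been trimmed by the authors (cutadapt 1.15), cleared of contaminants (Bowtie2 2.3.3.1), aligned to GRCm38 (STAR 2.5.2b) and sorted (SAMtools 1.5); featureCounts 1.5.3 is named without its strand or multi-mapping settings, so overlapping genes and copies are uncertain. No rows lacked a gene, and no libraries were identical. A deposited table that joins the libraries was not used.

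Genes were filtered with filterByExpr (minimum count 10, total 15), scaled with trimmed-mean (TMM) factors (0.917 to 1.08) and compared between 3 LPS and 3 control libraries with edgeR's quasi-likelihood test (edgeR 4.0.16, R 4.3.3; two-sided, Benjamini-Hochberg over 15226 genes, called under 0.05). SE is the absolute log2 fold change over the square root of F. CPM used the TMM-scaled sizes. Exon lengths and coordinates came from GENCODE M21 (98.9% of identifiers found). Floors cover counting error only. The fit was checked on simulated data. Fold changes were recovered there, but false calls exceeded the nominal rate in both fits, so adjusted p-values may be too small. The simulated counts held no difference between replicate numbers, so the check does not show how the block behaves with one.

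Deviations from the group means of same-numbered libraries correlated at 0.513, 0.334 and 0.613, all above 0.1. A replicate block was therefore fitted as the paired analysis. Control 1 with LPS 2 (0.419) and control 2 with LPS 1 (0.323) correlated as well. The correlations set the libraries numbered 3 apart but do not show how libraries 1 and 2 pair. What a number marks is not stated. Alternatives were other scalings, filters and tools (DESeq2 1.42.0, limma 3.58.1) and each library left out. The fit without both libraries numbered 3, and the block with other scalings, were chosen after seeing the data.

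Members and gene lists were chosen with earlier results of these data known. Named are all members and, per list, up to 4 called genes with the largest change, groups that do not overlap and at least 1 CPM, plus *Gch1*, *Nos2*, *Nos3*, *Slc18a3*, *Slc5a7*, *Ddc*, *Dbh* and *Rest*. A few list genes are counted but not reported here by name. The other paralogs above 1 CPM and the most abundant genes of each list, which the rule also covers, are given as counts. Of those abundant genes, *Npy*, *Dpysl3* and *Hand2* are named, as called with the block. *Adra2a*, *Prkg1*, *Qdpr*, *Ncam1*, *Thy1*, *Sv2a*, *Sox11*, *Cartpt* and *Cck* fell outside the rule and were named after their values were seen.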

Additional observations from a re-analysis of the deposited data

How the results depend on the processing

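Between LPS and control, 1384 genes were called higher and 1022 lower, of which 6 and 16 were genes of the neuronal and paralog lists outside the members. All genes were centred at a median log2 fold change of -0.02 by TMM, -0.12 by upper-quartile scaling and -0.18 by library size, and with the last 2 scalings 1589 and 2054 genes were lower. DESeq2 gave 2079 higher and 1673 lower genes, with 13 listed genes higher. The replicate block gave 2343 and 2273, with 17 and 28 listed genes and 1 member (*Vip*) higher. Leaving out both libraries numbered 3 gave 3498 and 3159, with 28 and 39 listed genes and 1 member higher. Leaving out 1 library at a time gave 379 to 1964 higher and 112 to 1426 lower genes, and 2 to 12 and 1 to 21 listed genes, with 0 members called in each. The lowest counts came without control 2; fewer samples were fitted, and the cause was not tested further.

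Several members with a log2 fold change near 0 changed sign without a call. *Elavl3* was at 0.015 with RLE factors and with DESeq2, 0.064 with limma-voom and 0.048 with the replicate block. *Snap25* was at 0.046 with limma-voom and 0.026 with the replicate block. *Elavl4* was at -0.072 with upper-quartile scaling, -0.13 with library size alone, -0.033 without both libraries numbered 3 and -0.040 with the block as well, and *Uchl1* at -0.029 with library size alone. With 1 library left out the ranges were -0.21 to 0.078 for *Tubb3*, -0.28 to 0.32 for *Elavl3*, -0.26 to 0.26 for *Elavl4*, -0.036 to 0.31 for *Uchl1*, -0.36 to 0.29 for *Snap25*, -0.83 to 0.021 for *Nos1*, -0.42 to 0.14 for *Stmn2* and -0.13 to 0.68 for *Slc18a3*. *Vip* kept a positive value (0.39 to 0.91). With the block its adjusted p from edgeR was 0.00302 with RLE factors, 0.00464 with upper-quartile scaling and 0.00557 with library size alone. Without the filter on low counts *Chat* (-0.62, adjusted p = 0.755 with edgeR) and *Th* (-0.68, adjusted p = 0.608 with edgeR) could be fitted and were not called. At this depth these 2 genes had few counts in every library, which limits what a test of them can show.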
